A study of Mus musculus with 6 samples.

Results

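Nr3c1, the gene of the glucocorticoid receptor, was examined together with 7 genes that respond to this receptor or modify its signalling in Paneth cells (PCs), the granule-bearing secretory cells of the crypts of the small intestine. The 8 genes were Nr3c1, Tsc22d3, Fkbp5, Sgk1, Zbtb16, Klf9, Zfp36 and Hsd11b2, taken by Ensembl identifier from a table of 55414 genes; all 8 were present, and all 8 were among the 13026 genes that passed the filter on low counts. PCs were purified with a cell sorter from the small intestine of C57BL/6J mice, 15 h after the mice received TNF or, as the control, PBS. Each group comprised 3 mice, and each mouse gave 1 bulk RNA library. All 6 mice, controls included, were knockouts of Ifnar1, the gene of one chain of the receptor for type I interferons, and no mice with intact Ifnar1 were part of the series. How the knockout was made, the sort gate, the dose and route of TNF, and the age and sex of the mice are not stated by the sources used. The comparison asked how TNF altered PC transcripts in these mice.

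The glucocorticoid receptor is a nuclear receptor that is held ready for its ligand in the cytoplasm by heat shock chaperones. After binding corticosterone, the main glucocorticoid of mice, it moves into the nucleus, where it activates some genes through a palindromic DNA element and damps others, among them many inflammatory genes that NF-kB drives. Intestinal epithelium is both a target of glucocorticoids and a tissue able to produce and inactivate them.

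Sequences before a transcript start of 3 of the genes are shown because they represent, in turn, a proximal window with the whole receptor element, one with none of its parts, and one with a single part. The element searched was AGAACA followed by any 3 bases and then TGTTCT, and its single parts were AGAACA or its reverse complement TGTTCT, which also occur inside the whole element; both strands were read. Capitals mark every 6-base match to a part. The RefSeq promoter table (GRCm38.p6, 250 bases before to 50 after each start) held 12 promoters for 5 of the 8 genes, Tsc22d3, Fkbp5, Sgk1, Klf9 and Zfp36, and each printed stretch was placed on GRCm39 by exact match. The stretches lie at chr10:21869539-21869788 on the plus strand for Sgk1, at chr17:28705153-28705373 on the minus strand for Fkbp5 and at chrX:139501409-139501521 on the minus strand for Tsc22d3, each from 5′ to 3′ in the direction of transcription.
Sgk1: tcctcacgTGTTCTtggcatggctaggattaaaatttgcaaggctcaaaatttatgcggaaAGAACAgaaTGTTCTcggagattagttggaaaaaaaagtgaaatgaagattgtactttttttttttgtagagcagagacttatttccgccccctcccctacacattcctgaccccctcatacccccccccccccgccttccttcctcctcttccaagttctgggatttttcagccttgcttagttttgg
Fkbp5: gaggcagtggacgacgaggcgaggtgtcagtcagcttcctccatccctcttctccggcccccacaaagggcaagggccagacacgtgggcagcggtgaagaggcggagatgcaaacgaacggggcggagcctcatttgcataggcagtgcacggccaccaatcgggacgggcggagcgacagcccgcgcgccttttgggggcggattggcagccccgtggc
Tsc22d3: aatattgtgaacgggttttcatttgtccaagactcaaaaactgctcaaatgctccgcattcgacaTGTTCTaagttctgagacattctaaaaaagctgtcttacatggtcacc
The Sgk1 stretch contained the whole element at chr10:21869600-21869614, ending 174 bases before the start site of a shorter Sgk1 transcript, within an intron of longer Sgk1 transcripts and outside any annotated exon. The Fkbp5 stretch likewise lies inside the annotated gene and outside its exons, before the start of a shorter transcript, whereas the Tsc22d3 stretch lies before the annotated gene start. The whole element occurred in 3 of 32851 promoters of the table (0.00913%) and in 1 of the 12 promoters of these genes (8.33%). Of the 12, 6 belong to Sgk1, so these shares do not count separate genes. A single part occurred in 19.0% of all promoters and in 4 of the 12 (33.3%), 3 of which belong to Sgk1 and 1 to Tsc22d3. The Fkbp5, Klf9 and Zfp36 promoters had none. When windows of 10 kb on either side of each gene's annotated start in GRCm39 were read instead, a choice made after seeing the data, 36 of 13003 tested genes (0.277%) and 0 of the 8 genes held the whole element; the Sgk1 element is missed there because the annotated gene start, that of the most upstream transcript, lies farther away. These matches describe letters in a window and say nothing of receptor binding.

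Levels are given as CPM, the counts of a gene per 1e+06 counts of its library, with library sizes scaled by the trimmed mean of M-values (TMM). Differences are given as log2 of TNF over PBS ± the standard error (SE) from edgeR's quasi-likelihood fit over all tested genes, and every adjusted p is from that test with Benjamini-Hochberg adjustment unless another tool is named. The libraries held 12747484 to 17039511 counts, so that 3 counts amounted to 0.146 to 0.255 CPM. TNF replicate 1 stood apart from the other TNF libraries: its log2 expression correlated at 0.937 to 0.945 with the PBS libraries but at 0.884 and 0.883 with TNF replicates 2 and 3, which correlated at 0.954 with each other. It lay at -39.3 on the first principal component (48.9% of the variance), beside PBS libraries at -35.8 to -28.7, whereas the other TNF libraries lay at 63.0 and 73.1. The 8 genes and the log2 differences of the other genes named are therefore given with and without it. All 14 PC markers were detected, with summed levels of 419184 to 517021 CPM in the PBS libraries and 319403 to 684014 CPM in the TNF libraries. Sums for enterocyte markers were 413 to 489 CPM in PBS, against 443, 158 and 115 CPM in TNF replicates 1, 2 and 3, and sums for stem cell markers were 2648 to 3206 CPM in PBS, against 4764, 973 and 843 CPM in the TNF libraries. Of 13 immune markers, 5 were at 0 in every library, Cd3g, Cd8a, Trac and Jchain among them. The others were detected, and 3 passed the filter on low counts. Sums of the immune list were 22.2 to 54.6 CPM in PBS, against 35.5 to 45.2 CPM in TNF. Goblet cell sums of 12279 to 13490 CPM in PBS stood beside 15728, 7845 and 11985 CPM in the TNF libraries, and stromal or endothelial sums did not exceed 0.666 CPM. Tuft cell sums were 398 to 1391 CPM in PBS, against 476 to 924 CPM in TNF, and enteroendocrine sums were 46.0 to 113 CPM, against 37.3 to 117 CPM. The part of these other cells in the results below was not tested, and in bulk samples fewer cells of a type and less RNA per cell cannot be told apart.

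None of the 8 genes passed an adjusted p of 0.05 (edgeR, Benjamini-Hochberg) over the 6 libraries, as was the case for all tested genes (0% of 13026); limma-voom also called 0 genes, and DESeq2 called 242, with 1 of the 8, Fkbp5, among them. At an unadjusted p below 0.05, 1 of the 8 was higher in TNF, Fkbp5, against 8.25% of all genes, and 0 of the 8 were lower, against 4% of all genes. PBS and TNF did not overlap for Tsc22d3, higher in TNF, and for Hsd11b2, lower in TNF; groups failed to overlap in these directions for 9.07% and 7.82% of all tested genes. Without TNF replicate 1, 1 of the 8 genes, Fkbp5, passed 0.05 as higher in TNF and 0 passed as lower, against 9.1% and 5.4% of 13660 genes. With 8 genes, counts of 0 or 1 do not set them apart from these background shares. The median log2 fold change of the 8 genes was 0.13 over the 6 libraries and 0.21 without TNF replicate 1, where all tested genes had medians of -0.00059 and -0.0071.

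**Figure D1:**
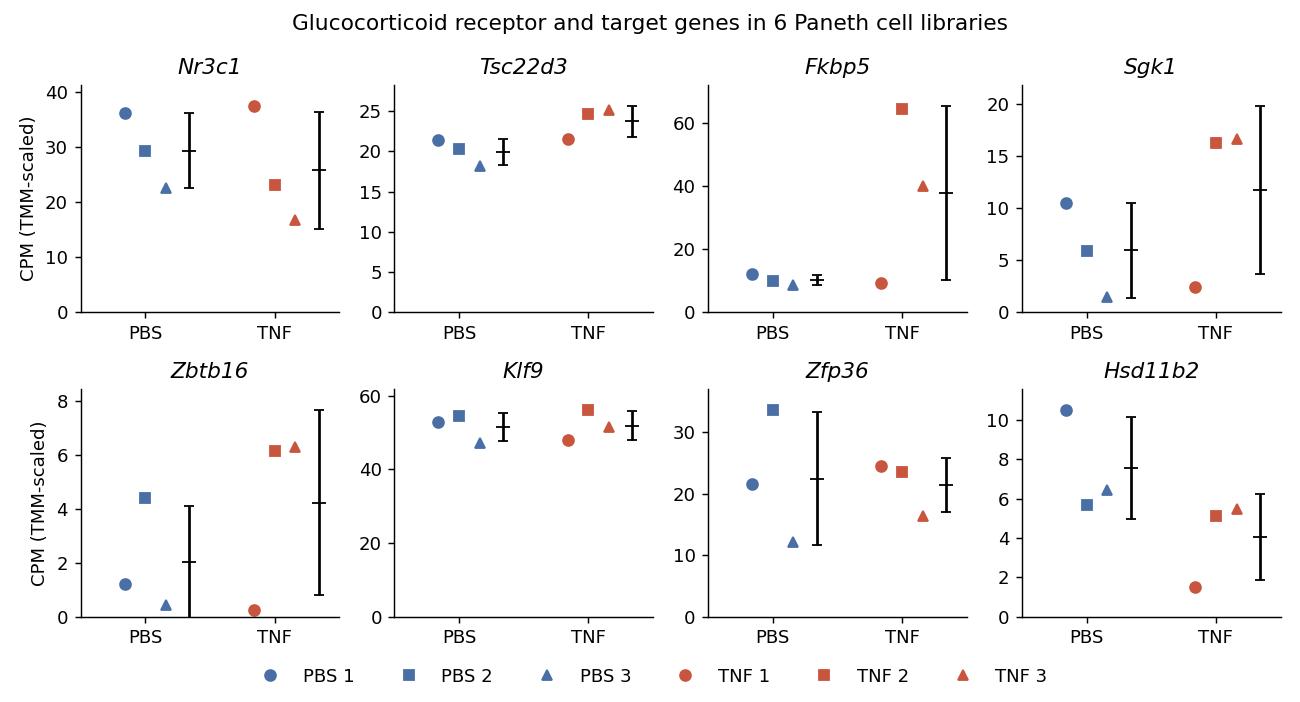
Level of each of the 8 genes in CPM (vertical axes start at 0 and differ between panels) in the PBS libraries (left) and TNF libraries (right), with 1 symbol per replicate and the mean with its SD (n = 3; the Zbtb16 bar in PBS is cut at 0). Fkbp5 stood at 64.4 and 40.2 CPM in TNF replicates 2 and 3 and at 9.16 CPM in TNF replicate 1, within the PBS range of 8.80 to 12.0 CPM.

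The receptor transcript itself did not separate the groups. Nr3c1 (ENSMUSG00000024431, chr18:39543598-39652474, minus strand, GRCm39) stood at 36.2, 29.2 and 22.6 CPM in PBS replicates 1 to 3 and at 37.5, 23.1 and 16.8 CPM in TNF replicates 1 to 3. The highest and the lowest library were both TNF libraries, replicates 1 and 3, and the whole PBS range lay between them. The means of 29.3 ± 6.79 CPM for PBS and 25.8 ± 10.6 CPM for TNF (SD, n = 3) differed by -0.19 on the log2 scale (SE 0.31; adjusted p = 0.843). The difference was -0.53 without TNF replicate 1 (SE 0.25, adjusted p = 0.192), the lowest adjusted p of 15 alternatives, which ranged up to 0.997. Nr3c2, which encodes the mineralocorticoid receptor that binds the same hormone, stood at 30.1, 42.0 and 32.9 CPM in PBS and at 29.0, 32.4 and 25.6 CPM in TNF (-0.27 ± 0.21 on the log2 scale, adjusted p = 0.637, and -0.25 ± 0.22 without TNF replicate 1). Per kilobase of exon, the ratio of Nr3c1 to Nr3c2 within a library was 1.30, 0.757 and 0.745 in PBS and 1.40, 0.773 and 0.714 in TNF, a description chosen after the levels were seen. Replicate 1 of each group had the higher ratio of the 2 receptors, and the groups overlapped.

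The tested genes whose pattern over the 6 libraries came closest to Nr3c1 were Ddrgk1, Pkn3 and Hsph1, with root mean square differences of centred log2 CPM of 0.0607, 0.0626 and 0.0923. For Nr3c1 itself the libraries spanned 1.15 on that scale. Hsph1, which encodes a heat shock protein of the Hsp110 family, stood at 26.7, 22.4 and 19.1 CPM in PBS and at 25.9, 16.4 and 12.5 CPM in TNF. Likeness over 6 libraries is a description only.

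Among the 13 chaperones and cochaperones of the receptor, 0 passed 0.05 over the 6 libraries (2 at an unadjusted p below 0.05, both higher in TNF, against 8.25% of all genes), with a median log2 fold change of 0.09 in both fits. Those 2 were Dnajb1, an Hsp40 cochaperone, and Bag1, a nucleotide exchange factor of Hsp70. Dnajb1 stood at 20.6, 30.5 and 27.9 CPM in PBS and at 38.1, 43.3 and 45.2 CPM in TNF (0.68 ± 0.22 on the log2 scale, adjusted p = 0.297). Bag1 stood at 90.7, 82.6 and 75.5 CPM in PBS and at 117, 133 and 127 CPM in TNF (0.60 ± 0.20 on the log2 scale, adjusted p = 0.308). For both, all TNF libraries, replicate 1 included, lay above all PBS libraries. Without TNF replicate 1 both passed 0.05 and rose 1.70-fold and 1.59-fold, with adjusted p of 0.0340 and 0.0409 (0.0340 to 0.897 and 0.0250 to 0.897 over 15 alternatives), while 0 of the 13 fell, against 9.1% and 5.4% of all genes. The constitutive Hsp70 gene Hspa8 and the Hsp90 genes Hsp90ab1 and Hsp90aa1 had differences of 0.50, 0.47 and 0.06 on the log2 scale over the 6 libraries (SE 0.24, 0.27 and 0.21; adjusted p = 0.439, 0.509 and 0.930), and of 0.57, 0.60 and 0.09 without TNF replicate 1.

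Fkbp4 and Fkbp5 encode related immunophilins that compete for the Hsp90 bound to the receptor: FKBP52, the product of Fkbp4, favours hormone binding and nuclear transport, and FKBP51, the product of Fkbp5, opposes them and is itself induced by the active receptor. Fkbp5 (ENSMUSG00000024222, chr17:28618058-28737521, minus strand) stood at 12.0, 9.99 and 8.80 CPM in PBS and at 9.16, 64.4 and 40.2 CPM in TNF. TNF replicates 2 and 3 stood far above every other library, and TNF replicate 1 stood within the PBS range. Means were 10.3 ± 1.63 CPM for PBS and 37.9 ± 27.7 CPM for TNF (SD, n = 3), a 3.70-fold difference (1.89 ± 0.56 on the log2 scale, unadjusted p = 0.00751, adjusted p = 0.284). Fkbp5 was 5.17-fold higher in TNF without TNF replicate 1 (2.37 ± 0.25 on the log2 scale, adjusted p = 1.54e-04). It passed 0.05 in 4 of 15 alternatives, whose adjusted p ran from 8.44e-08 to 0.897. Fkbp4 stood at 129, 103 and 94.4 CPM in PBS and at 114, 101 and 80.1 CPM in TNF, with overlapping groups (-0.15 ± 0.23 on the log2 scale, adjusted p = 0.827, and -0.24 ± 0.22 without TNF replicate 1). Per kilobase of exon, the level of Fkbp5 relative to Fkbp4 in the same library was 0.0315, 0.0328 and 0.0316 in PBS, and 0.0273, 0.215 and 0.170 in TNF. The PBS ratios were close together, and those of TNF replicates 2 and 3 lay above them. Fkbp4 was the more abundant per length in every library; the ratio was chosen after the levels were seen and was not tested. Exons of Fkbp5 overlap those of 3 genes annotated on the opposite strand over at most 255 bases each, and since the strand setting of the counting was not given, reads of such pairs cannot be told apart. The same holds for Nr3c1, Klf9 and Zfp36, which share 1165, 333 and 125 exon bases with a gene on the opposite strand.

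**Figure D2:**
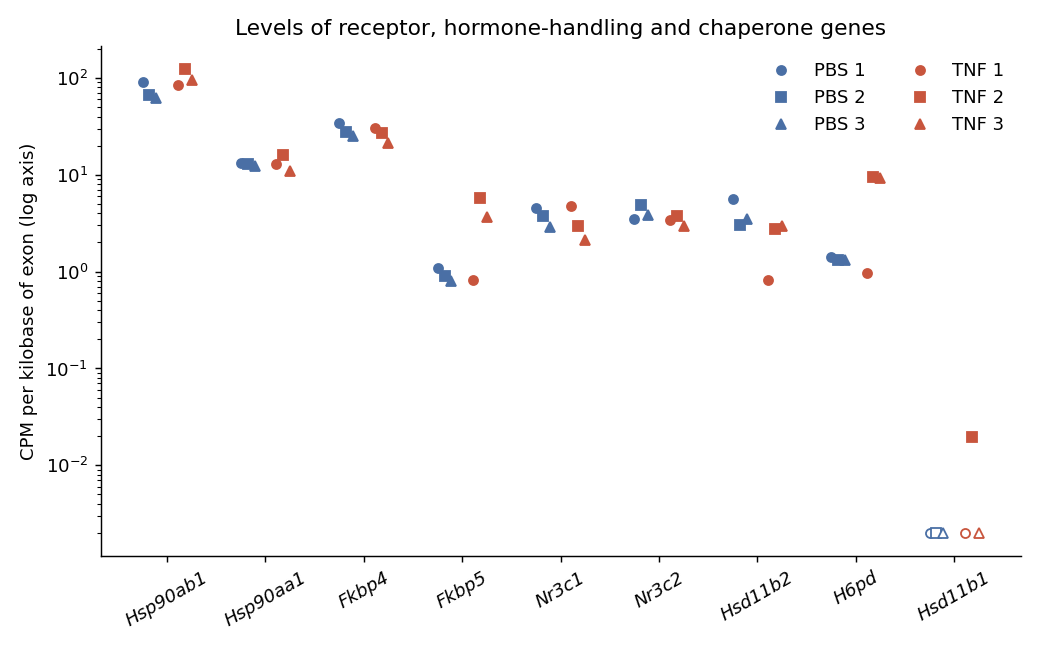
Level per kilobase of exon (CPM per kilobase, log axis) of chaperone, receptor and hormone-handling genes, with 1 symbol per library; open symbols on the lower edge stand for 0. Fkbp5 lay below Fkbp4 in all 6 libraries, and H6pd stood at 9.53 and 9.38 CPM per kilobase in TNF replicates 2 and 3 against 1.33 to 1.42 in PBS and 0.966 in TNF replicate 1.

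Hsd11b2, which encodes the dehydrogenase that inactivates corticosterone, was lower in every TNF library than in any PBS library, but its difference did not pass the test. This gene (ENSMUSG00000031891, chr8:106245369-106250620, plus strand) stood at 10.5, 5.66 and 6.45 CPM in PBS and at 1.53, 5.12 and 5.47 CPM in TNF. TNF replicate 1 was the lowest library, with 18 counts, and TNF replicates 2 and 3 lay just under PBS replicate 2. Group means were 7.54 ± 2.60 CPM for PBS and 4.04 ± 2.18 CPM for TNF (SD, n = 3), with a log2 difference of -0.89 (SE 0.49, unadjusted p = 0.102, adjusted p = 0.488). Leaving out TNF replicate 1 gave -0.49 (SE 0.36, adjusted p = 0.418), and adjusted p ran from 0.400 to 0.919 over 15 alternatives.

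Other genes that make, reactivate, break down, carry or export glucocorticoids, or control their synthesis, were listed together with the receptor gene Nr3c2. They were mostly too low to test: 5 of 16 passed the filter, namely Nr3c2, H6pd, Nr5a2, Srd5a1 and Abcb1a. Of the 5, 0 passed 0.05 over the 6 libraries (2 at an unadjusted p below 0.05, both higher in TNF, against 8.25% of all genes). The median log2 fold change of the 5 was -0.19, and -0.25 without TNF replicate 1, where 2 of the 5 passed as higher, against 9.1% of all genes. H6pd encodes the hexose-6-phosphate dehydrogenase that supplies NADPH to the reductase of Hsd11b1 in the endoplasmic reticulum. It stood at 13.4, 12.5 and 12.5 CPM in PBS and at 9.08, 89.6 and 88.2 CPM in TNF (2.28 ± 0.65 on the log2 scale, adjusted p = 0.278). TNF replicate 1 was the lowest library and TNF replicates 2 and 3 were the highest, and without TNF replicate 1 H6pd was 7.03-fold higher in TNF (adjusted p = 6.84e-06, with 6.98e-12 to 0.897 over 15 alternatives). Hsd11b1, which reactivates corticosterone, was at 0 in 5 libraries and at 0.0976 CPM in TNF replicate 2, below the level of 3 counts. Abcb1a, a P-glycoprotein gene whose product exports steroids, stood at 35.4, 39.4 and 34.5 CPM in PBS and at 38.4, 157 and 92.5 CPM in TNF (1.40 ± 0.42 on the log2 scale, adjusted p = 0.290). It was 3.47-fold higher without TNF replicate 1 (adjusted p = 6.06e-04, with 6.75e-05 to 0.897 over 15 alternatives). Of the steroid synthesis genes, Cyp11a1 reached at most 0.293 CPM and Cyp11b1 was at 0 in all 6 libraries. Nr5a2, a nuclear receptor that regulates intestinal steroid synthesis, stood at 9.87, 12.5 and 11.1 CPM in PBS and at 14.0, 10.2 and 5.14 CPM in TNF (-0.19 ± 0.36 on the log2 scale, adjusted p = 0.857, and -0.51 ± 0.32 without TNF replicate 1). Srd5a1, a steroid reductase gene, had a log2 difference of -0.33 (SE 0.33, adjusted p = 0.730, and -0.37 without TNF replicate 1).

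The 15 receptor coregulators had a median log2 fold change of -0.14, or -0.02 without TNF replicate 1. Over the 6 libraries 0 passed 0.05, as was the case for all tested genes. At an unadjusted p below 0.05 there were 0 of the 15, against 8.25% of all genes higher and 4% lower. With 15 genes, a count of 0 does not set them apart from these shares. Hdac3, a histone deacetylase, stood at 29.5, 28.0 and 27.0 CPM in PBS and at 26.9, 45.3 and 47.8 CPM in TNF (0.51 ± 0.25 on the log2 scale, adjusted p = 0.439). It was the 1 gene of the 15 that passed without TNF replicate 1, against 9.1% of all genes, and was then 1.67-fold higher (adjusted p = 0.0195, with 0.0195 to 0.922 over 15 alternatives). Ppargc1a, Ncor1 and Ncoa1 had differences of 0.62, -0.25 and -0.26 on the log2 scale (SE 0.46, 0.19 and 0.21; adjusted p = 0.613, 0.622 and 0.632), and 0.93, -0.20 and -0.26 without TNF replicate 1.

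**Figure D3:**
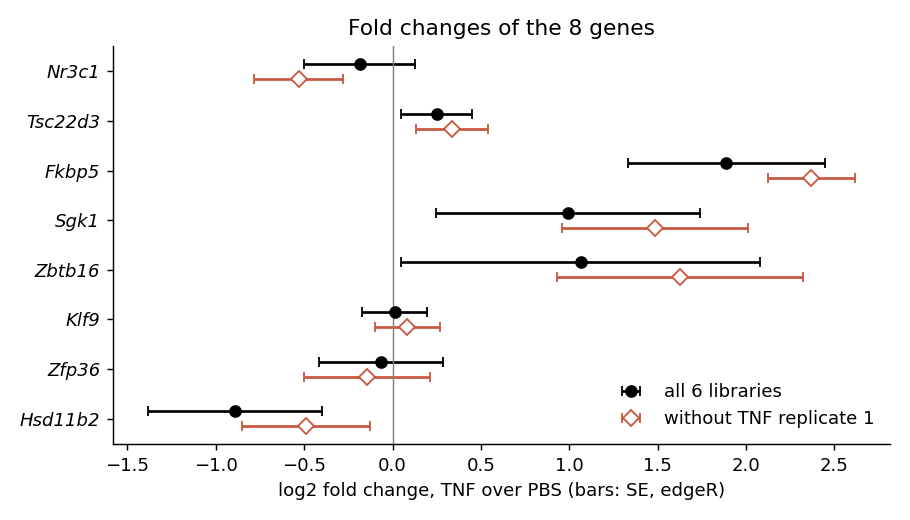
Log2 fold change of TNF over PBS with its SE (edgeR) for each of the 8 genes, over all 6 libraries (filled circles) and without TNF replicate 1 (open diamonds). Fkbp5 had the largest value in both, 1.89 and 2.37, and Klf9 stayed at 0.01 and 0.08.

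Tsc22d3 encodes GILZ, a leucine zipper protein induced by glucocorticoids that restrains NF-kB and AP-1. This gene (ENSMUSG00000031431, chrX:139440091-139501408, minus strand) stood at 21.4, 20.2 and 18.2 CPM in PBS and at 21.5, 24.6 and 25.1 CPM in TNF. All TNF libraries lay above all PBS libraries, although TNF replicate 1 exceeded PBS replicate 1 by very little. The means of 19.9 ± 1.62 CPM for PBS and 23.7 ± 1.96 CPM for TNF (SD, n = 3) gave a log2 difference of 0.25 (SE 0.20; adjusted p = 0.645). The difference was 0.34 without TNF replicate 1 (SE 0.20, adjusted p = 0.308), and adjusted p ran from 0.207 to 0.959 over 15 alternatives. The genes closest to Tsc22d3 in pattern were Aagab, Rab8a and Pcmt1, at root mean square differences of 0.0466, 0.0523 and 0.0606 of centred log2 CPM, with Tsc22d3 itself spanning 0.46; Rab8a, which encodes a small GTPase of apical membrane traffic, stood at 51.6 to 63.9 CPM in PBS and at 65.1 to 70.2 CPM in TNF.

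Sgk1 encodes a kinase that promotes epithelial sodium uptake and is induced by both corticosteroid receptors. In this gene (ENSMUSG00000019970, chr10:21758083-21875802, plus strand), whose proximal sequence with the whole element is given above, levels were 10.5, 5.86 and 1.47 CPM in PBS, against 2.46, 16.3 and 16.6 CPM in TNF. TNF replicates 2 and 3 were the highest libraries and TNF replicate 1 lay within the wide PBS range. Means were 5.95 ± 4.53 CPM and 11.8 ± 8.08 CPM (SD, n = 3), with a log2 difference of 0.99 (SE 0.75; adjusted p = 0.619). The value without TNF replicate 1 was 1.49 (SE 0.53, unadjusted p = 0.0164, adjusted p = 0.0854), and adjusted p ran from 0.0512 to 0.961 over 15 alternatives. Sgk1 exons share 524 and 345 bases with 2 genes on the opposite strand.

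Zbtb16 encodes PLZF, a zinc finger repressor that is among the most strongly glucocorticoid-induced genes of many tissues. It was near the limit of counting in some of these libraries (ENSMUSG00000066687, chr9:48563141-48748664, minus strand), with 17, 66 and 6 counts in PBS and 3, 126 and 78 counts in TNF. These amounted to 1.22, 4.40 and 0.440 CPM in PBS and to 0.255, 6.15 and 6.27 CPM in TNF. As for Sgk1, TNF replicates 2 and 3 lay above every PBS library, whereas TNF replicate 1 lay below them. Means were 2.02 ± 2.09 CPM and 4.22 ± 3.44 CPM (SD, n = 3), with a log2 difference of 1.06 (SE 1.01; adjusted p = 0.707). When TNF replicate 1 was left out it was 1.63 (SE 0.69, unadjusted p = 0.0384, adjusted p = 0.149), and adjusted p ran from 0.149 to 0.977 over 14 alternatives.

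Klf9 encodes a Krüppel-like transcription factor and is widely used as a readout of glucocorticoid action. Across libraries it was the steadiest of the 8 genes (ENSMUSG00000033863, chr19:23118187-23148497, plus strand), at 52.8, 54.4 and 47.2 CPM in PBS, against 48.0, 56.1 and 51.4 CPM in TNF. TNF replicate 2 was the highest library and the groups overlapped. With means of 51.5 ± 3.77 CPM and 51.9 ± 4.06 CPM (SD, n = 3), the log2 difference was 0.01 (SE 0.19; adjusted p = 0.986), and its sign turned under library-size scaling (-0.08), upper-quartile scaling (-0.05) and 6 further settings. Leaving out TNF replicate 1 gave 0.08 (SE 0.19, adjusted p = 0.815), the lowest of 15 alternatives, which ranged up to 0.996.

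Zfp36 encodes tristetraprolin, an RNA-binding protein that speeds the decay of Tnf and other AU-rich transcripts and that both glucocorticoids and NF-kB induce. It did not separate the groups (ENSMUSG00000044786, chr7:28076209-28079710, minus strand), at 21.6, 33.6 and 12.1 CPM in PBS, against 24.4, 23.5 and 16.4 CPM in TNF. All 3 TNF libraries lay inside the PBS range. Means were 22.4 ± 10.8 CPM and 21.5 ± 4.40 CPM (SD, n = 3), with a log2 difference of -0.07 (SE 0.35; adjusted p = 0.954) whose sign depended on single libraries, from -0.41 without PBS replicate 3 to 0.35 without PBS replicate 2. Leaving out TNF replicate 1 gave -0.15 (SE 0.36, adjusted p = 0.833; 0.754 to 0.995 over 15 alternatives). The related decay factors Zfp36l1 and Zfp36l2 had differences of -0.03 and -0.24 on the log2 scale (SE 0.23 and 0.25; adjusted p = 0.964 and 0.737), and -0.02 and -0.47 without TNF replicate 1.

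Of 12 genes that act with or against tristetraprolin on AU-rich transcripts, 0 passed 0.05 over the 6 libraries (1 at an unadjusted p below 0.05, lower in TNF, against 4% of all genes), with a median log2 fold change of -0.13, or -0.11 without TNF replicate 1. That gene was Elavl1, which encodes HuR, a protein that stabilizes such transcripts. Elavl1 stood at 56.7, 50.9 and 53.3 CPM in PBS and at 44.9, 32.8 and 26.5 CPM in TNF, with every TNF library below every PBS library (-0.63 ± 0.23 on the log2 scale, adjusted p = 0.331). Without TNF replicate 1 it fell by 0.83 on the log2 scale (adjusted p = 0.0169; 0.0169 to 0.919 over 15 alternatives), and Dcp2, a decapping enzyme gene, rose 1.97-fold (adjusted p = 0.0326; 0.0326 to 0.958). In this fit 9.1% of all genes were higher and 5.4% lower. Over the 6 libraries Dcp2, Rc3h1 and Khsrp had differences of 0.61, 0.33 and -0.23 on the log2 scale (SE 0.40, 0.25 and 0.22; adjusted p = 0.570, 0.622 and 0.711), and 0.98, 0.55 and -0.12 without TNF replicate 1. Tnf, a transcript that tristetraprolin acts on, stood at 0.576, 0.133 and 0.660 CPM in PBS and at 0.679, 8.05 and 9.97 CPM in TNF, named after its values were seen; it did not pass the filter over the 6 libraries.

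Levels between genes were compared per kilobase of exon. In PBS the order was Zfp36 at 6.41 CPM per kilobase (3.46 to 9.60 over the 3 libraries), Klf9 at 6.26 (5.75 to 6.62), Hsd11b2 at 4.06 (3.05 to 5.66), Nr3c1 at 3.72 (2.87 to 4.59), Tsc22d3 at 3.22 (2.94 to 3.45), Sgk1 at 0.989 (0.244 to 1.75), Fkbp5 at 0.928 (0.795 to 1.09) and Zbtb16 at 0.215 (0.0468 to 0.468). Among neighbours in this order, library ranges were separate for Klf9 and Hsd11b2, for Tsc22d3 and Sgk1 and for Fkbp5 and Zbtb16, and overlapped for the rest. In TNF the means were 6.31 for Klf9, 6.13 for Zfp36, 3.83 for Tsc22d3, 3.43 for Fkbp5, 3.27 for Nr3c1, 2.17 for Hsd11b2, 1.96 for Sgk1 and 0.450 CPM per kilobase for Zbtb16. This order of means did not hold in every library. Fkbp5 was at 0.828, 5.82 and 3.63 in TNF replicates 1 to 3 and Nr3c1 at 4.76, 2.93 and 2.13. Fkbp5 thus lay below Nr3c1 in TNF replicate 1 and above it in TNF replicates 2 and 3. The length used was the union of all annotated exons, which lowers the value of a gene with many unused exons.

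The 8 genes differed in how each TNF library stood against the PBS range. In TNF replicate 1, Fkbp5, Sgk1, Klf9 and Zfp36 lay within that range, Nr3c1 and Tsc22d3 above it, and Zbtb16 and Hsd11b2 below it. In TNF replicates 2 and 3, Tsc22d3, Fkbp5, Sgk1 and Zbtb16 lay above the range, Hsd11b2 below it and Zfp36 within it. Nr3c1 and Klf9 differed between those 2 libraries, with Nr3c1 within the range in replicate 2 and below it in replicate 3, and Klf9 above it and within it.

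A list of 44 further genes known to be induced by glucocorticoids gave 39 that passed the filter. Over the 6 libraries 0 passed 0.05, with 10 higher and 1 lower in TNF at an unadjusted p below 0.05 (8.25% and 4% of all genes), and the median log2 fold change was 0.12. Of the 10, Mt2, Anxa1, Pdk4 and Angptl4 needed TNF libraries to pass the filter, because some or all of their PBS libraries were too low. These counts are therefore no measure of the list. Some genes of this list are also induced by NF-kB, Tnfaip3, Birc3 and Nfkbia among them. Per1 and Dusp1, clock and phosphatase genes that glucocorticoids induce directly, did not separate the groups. Per1 stood at 23.1, 18.5 and 7.19 CPM in PBS and at 10.7, 13.4 and 15.2 CPM in TNF (-0.31 ± 0.39 on the log2 scale, adjusted p = 0.779, and -0.17 ± 0.39 without TNF replicate 1). Dusp1 stood at 9.00, 15.5 and 6.09 CPM in PBS and at 23.8, 11.0 and 15.3 CPM in TNF, with TNF replicate 1 the highest library (0.71 ± 0.39 on the log2 scale, adjusted p = 0.493, and 0.38 ± 0.36 without TNF replicate 1).

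The genes of this list with the smallest unadjusted p were Cdkn1a, Mt2, Tnfaip3 and Mt1. Cdkn1a, a cell cycle inhibitor gene, stood at 39.5, 24.7 and 40.0 CPM in PBS and at 46.8, 114 and 111 CPM in TNF (1.38 ± 0.35 on the log2 scale, adjusted p = 0.270, and 1.71 ± 0.23 without TNF replicate 1). Tnfaip3, which encodes the NF-kB inhibitor A20, stood at 8.21, 7.59 and 8.87 CPM in PBS and at 9.08, 26.3 and 31.8 CPM in TNF (1.45 ± 0.41 on the log2 scale, adjusted p = 0.278, and 1.84 ± 0.22 without TNF replicate 1). For both genes all TNF libraries lay above all PBS libraries, replicate 1 by little. Mt1, a metallothionein gene, stood at 10.7, 8.52 and 6.89 CPM in PBS and at 19.0, 13.3 and 17.6 CPM in TNF, where TNF replicate 1 was the highest library (0.93 ± 0.27 on the log2 scale, adjusted p = 0.278, and 0.84 ± 0.27 without TNF replicate 1). Its neighbour Mt2 was at 0, 0.0666 and 0.367 CPM in PBS and at 2.46, 0.683 and 5.14 CPM in TNF.

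Without TNF replicate 1, 40 genes of this list were tested, of which 9 rose and 1 fell (9.1% and 5.4% of all genes), with a median log2 fold change of 0.30. The genes that rose were Pdk4, Angptl4, Mt2, Anxa1, Cdkn1a, Atp1b1, Nfkbia, Tnfaip3 and Birc3, and the gene that fell was Irs2, an insulin receptor substrate. Mt2 and Anxa1 were so low in PBS that they entered this fit through their TNF libraries, so the count of 9 is no measure of the list. Pdk4 and Angptl4, a mitochondrial kinase that spares glucose and an inhibitor of lipoprotein lipase, are named after their values were seen. Pdk4 stood at 2.59, 3.00 and 0.220 CPM in PBS and at 1.27, 27.3 and 30.3 CPM in TNF (3.33 ± 1.03 on the log2 scale, adjusted p = 0.297; 3.90 and 9.41e-04 without TNF replicate 1). Angptl4 stood at 2.16, 1.60 and 0.0733 CPM in PBS and at 1.36, 28.1 and 18.6 CPM in TNF (3.64 ± 1.05 on the log2 scale, adjusted p = 0.278; 4.20 and 0.00107 without TNF replicate 1). For both genes TNF replicate 1 lay within the PBS range, as it did for Fkbp5 and Sgk1, and over 15 alternatives the adjusted p ran from 2.96e-13 to 0.897 for Pdk4 and from 3.05e-13 to 0.897 for Angptl4. Both are also known targets of PPAR receptors.

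Angptl4 was the 1 gene of the 39 (2.56%) with the whole receptor element within 10 kb of its annotated start, against 0.277% of all tested genes. Since Angptl4 needed TNF libraries to pass the filter, this share is no measure of the list. Its stretch is shown because Angptl4 pairs that element with one of the larger differences of the list, a choice made after its values were seen. The element lies at chr17:33993865-33993879, within an annotated untranslated region 6932 bases downstream of the gene start, and capitals again mark the element, here with its 3 middle bases, in the stretch chr17:33993858-33993886 on the minus strand.
Angptl4: caacctcAGAACATTTTGTTCTctgttgt
The match is a description of letters and not of a bound site.

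**Figure D4:**
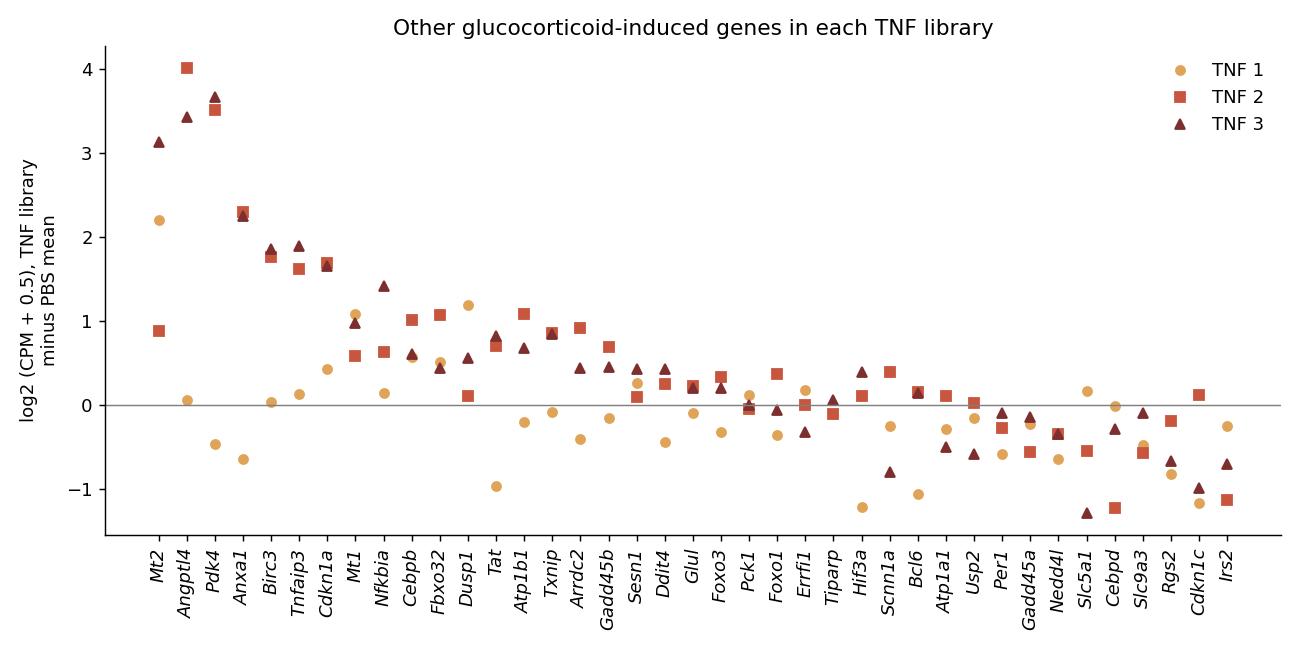
Difference in log2 (CPM + 0.5) between each TNF library and the PBS mean for 39 other glucocorticoid-induced genes, ordered along the horizontal axis, with 1 symbol per TNF library. Medians over the genes were -0.16, 0.25 and 0.40 in TNF replicates 1, 2 and 3, 3, 9 and 8 genes lay above 1, and 3, 2 and 1 genes lay below -1. The genes above 1 include Mt2, Angptl4, Pdk4 and Anxa1, which needed TNF libraries to pass the filter. These counts are therefore no measure of the list, and the same shares over all tested genes were not computed.

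Inflammatory genes that glucocorticoids are known to repress were mostly too low to test: 5 of 22 passed the filter over the 6 libraries, and 9 were at 0 in every library, Il6 and Ccl2 among them. Icam1, Ccl20 and Nos2 were at an unadjusted p below 0.05, and 0 of the 5 passed 0.05; since such low genes can enter the test through their TNF libraries, these counts are no measure of the list. Icam1, a leukocyte adhesion molecule gene, stood at 0, 0.333 and 1.25 CPM in PBS and at 1.61, 24.1 and 32.1 CPM in TNF (5.19 ± 1.16 on the log2 scale, adjusted p = 0.270, and 5.75 ± 0.62 without TNF replicate 1). Nos2, which encodes inducible nitric oxide synthase, stood at 6.41, 3.80 and 1.76 CPM in PBS and at 3.22, 38.1 and 76.0 CPM in TNF (3.29 ± 0.90 on the log2 scale, adjusted p = 0.278, and 3.85 ± 0.43 without TNF replicate 1). The chemokine gene Ccl20 stood at 0.864, 0.666 and 0.0733 CPM in PBS and at 1.70, 5.71 and 12.9 CPM in TNF (3.64 ± 0.89 on the log2 scale, adjusted p = 0.270, and 4.11 ± 0.67 without TNF replicate 1). TNF replicates 2 and 3 were the highest libraries for all 3 genes, and TNF replicate 1 lay within the PBS range for Nos2 and above it for Icam1 and Ccl20. Without TNF replicate 1, Nos2 and Ccl20 passed 0.05. Icam1, Tnf, Cxcl1, Cxcl2 and Cxcl9 were also called higher there, but they were so low in PBS that they entered the fit through their TNF libraries, and these calls are not counted. Ptgs2, which encodes the inducible cyclooxygenase COX-2 and is named after its values were seen, went the other way, at 0.288, 1.86 and 2.79 CPM in PBS and at 0, 0.0488 and 0.241 CPM in TNF. Its adjusted p ran from 0.0314 without a filter to 0.897 over the 5 alternatives that tested it. Most genes of the list are also known NF-kB targets.

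**Figure D5:**
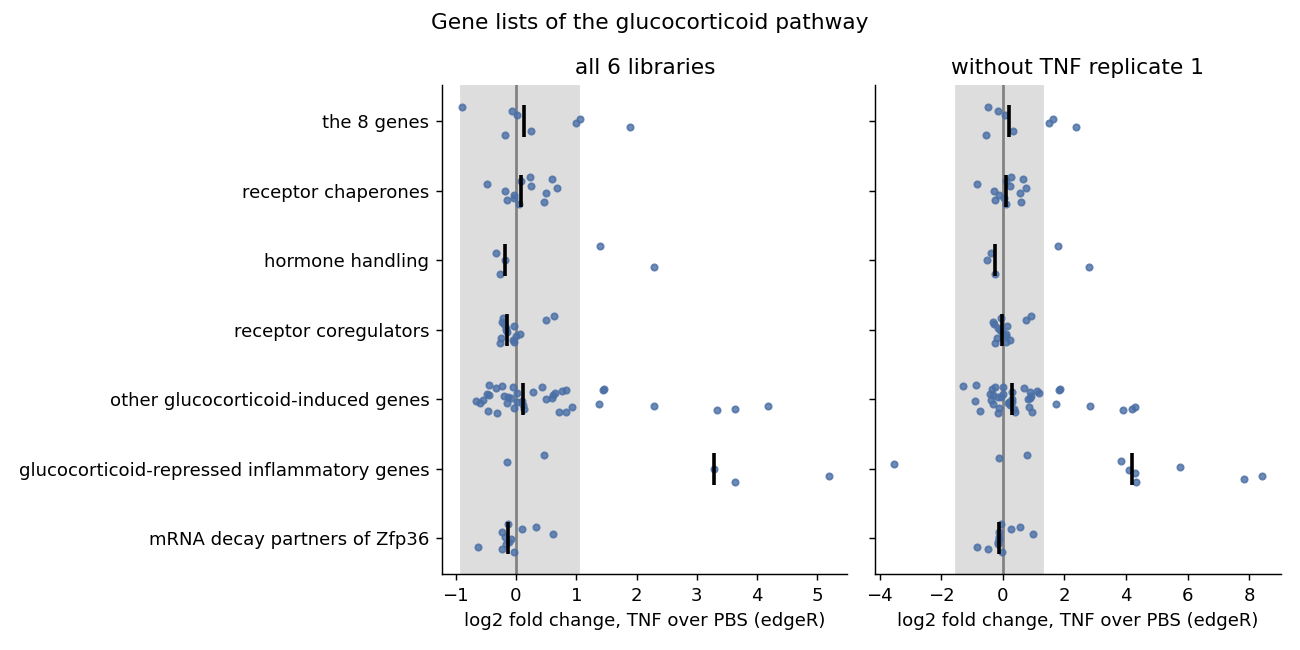
Log2 fold change of TNF over PBS (edgeR) for every tested gene of each list (points), with the list median (black tick), over the 6 libraries (left) and without TNF replicate 1 (right). The glucocorticoid-induced and inflammatory lists include genes, Mt2 and Icam1 among them, that entered the fits through their TNF libraries. The points and medians of these lists are therefore no measure of the lists. The grey band spans the 5th to 95th percentile of all tested genes, -0.92 to 1.05 on the left and -1.52 to 1.30 on the right, and the medians of the 8 genes, 0.13 and 0.21, lay inside it.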

How the data were processed

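RNA was measured in 6 libraries of sorted PCs (3 PBS, 3 TNF), each from a different mouse as the series' design text states, sequenced single-end (Element AVITI). The authors deposited 1 table of raw counts per gene by Ensembl identifier, which was used as deposited; all sample columns were assigned by name (0 left unused). The submitters' processing notes name mm39, FastQC, Trimmomatic 0.39, STAR 2.7.10a and DESeq2; the counting tool, annotation release and strand setting were not given in the sources used here, and reads shared with overlapping genes could therefore be assigned to either.

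Symbols and positions came from GENCODE release M39 on GRCm39, which matched 54749 of 55414 identifiers. Genes were kept by edgeR's filterByExpr (minimum count 10, minimum total 15), scaled by TMM and tested by the two-sided quasi-likelihood test with group as the only term (edgeR 4.0.16 in R 4.3.3), with Benjamini-Hochberg adjustment over all 13026 genes. Log2 CPM values for library correlations, principal components and likeness of pattern used a prior count of 2, which was not set for the test. The fit without TNF replicate 1 was filtered anew and tested 13660 genes. A level of 3 counts was taken as the floor. Alternatives used other scaling (relative log expression, upper quartile, library size), no filter or a mean CPM of at least 5, a replicate block, DESeq2 1.42.0, limma-voom 3.58.1 with and without sample weights, and omission of each library. Replicates of a group differed beyond sampling noise (chi-square per degree of freedom of at least 27.6). The main edgeR fit was also run on simulated counts, with an outcome that is not reported here. Promoter sequences came from RefSeq and were searched with Python 3.11.15.

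The 8 genes, the pathway lists and the markers were chosen with earlier results of these data known. Named genes were the 8, a fixed set of related genes (Nr3c2, Hsd11b1, H6pd, Cyp11a1, Cyp11b1, Nr5a2, Fkbp4, Hsp90aa1, Hsp90ab1, Per1, Dusp1, Zfp36l1, Zfp36l2), up to 4 genes per list with the smallest unadjusted p, and the 3 genes closest in pattern to Nr3c1 and Tsc22d3. Exceptions are marked as named after their values were seen. Some items that these rules would name are not reported here.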

Additional observations from a re-analysis of the deposited data

How the results depend on the processing

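The number of genes past 5%, 0 in the main test, was 690 without a filter, 242 with DESeq2, 1501 with limma-voom sample weights and 0 to 1980 when each library was left out in turn; it was 0 under the other scalings, the stricter filter and limma-voom without weights. Of the 8 genes, 1 passed (Fkbp5 each time) without a filter, with DESeq2 and with sample weights, and 0 to 1 when libraries were left out, the 1 being without TNF replicate 1. Of the pathway list genes, 17 of 104 passed without a filter, 6 of 89 with DESeq2, 14 of 89 with sample weights and 0 to 24 with libraries left out, 24 of 95 being without TNF replicate 1. Over all genes the counts were 690 of 23434, 242 of 13026, 1501 of 13026 and, without TNF replicate 1, 1980 of 13660. The 24 include Icam1, Tnf, Cxcl1, Cxcl2, Cxcl9, Mt2 and Anxa1, which entered that fit through their TNF libraries. The list counts are therefore no measure of the lists. The cause of the differences between settings was not tested. Deviations from the group mean correlated at -0.013, -0.075 and 0.031 between same-numbered PBS and TNF libraries. With 3 libraries per group and TNF replicate 1 apart from the others, this cannot decide whether the replicate numbers pair the samples. The replicate block gave 0 genes, 0 of the 8 and 0 list genes past 5%. The receptor element was in 8.33% of the 12 promoters, which cover 5 of the 8 genes and of which 6 belong to Sgk1. It was in 0% of the 10 kb windows of all 8, which were added after seeing the data.

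Signs turned for 3 genes whose values lay near 0. Klf9 was at -0.0045 with relative log expression factors, -0.0782 with library size alone, -0.0518 with upper-quartile factors, -0.0214 without a filter, -0.0067 at a mean CPM of at least 5, -0.0042 with DESeq2 and -0.0914 to 0.0836 with libraries left out. Zfp36 was at 0.0277 under the replicate block, 0.0319 with limma-voom, 0.0714 with sample weights and -0.41 to 0.35 with libraries left out, and Nr3c1 was at -0.53 to 0.0485. With library size alone, all tested genes had a median of -0.11, with 540 higher and 731 lower at an unadjusted p below 0.05 against 1075 and 521 in the main test. Zbtb16 could not be fitted at a mean CPM of at least 5, which removed it. Zbtb16, at 3 counts in 1 library, had the lowest counts of the 8 genes.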
